A study of Mus musculus with 4 samples.

Results

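The genes described here build and control the pyruvate dehydrogenase complex, with pyruvate carboxylase beside them. They are the kinases Pdk1, Pdk2, Pdk3 and Pdk4, the subunit genes Pdha1, Pdhb, Dlat, Dld and Pdhx, and Pcx. The rule uses gene symbols and no measured value, although the gene set itself was proposed with earlier results of these data known. Probe sets annotated to exactly 1 of these symbols were taken, and the probe set of highest mean log2 signal stands for its gene. Of the 10 genes, 9 had a probe set, 18 of the 22690 probe sets in all. Pdhx, which encodes the subunit that holds Dld on the core of the complex, was matched to none and is not analysed here. Of the 18, 4 were array control probe sets of Pcx, which were left out of the test.

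The series measured gastrocnemius muscle, a calf muscle in which fast fibres prevail, in mice 6 weeks old. The 2 MCK-PPARb arrays hold RNA of transgenic mice that overexpress the nuclear receptor PPARbeta in muscle, where MCK stands for the muscle creatine kinase promoter. The 2 non-transgenic arrays hold RNA of wild-type littermates. No other allele or agent is named in the labels, and no founder line or strain is given there. Whole muscle was measured, so fewer cells of a type and less RNA per cell cannot be told apart. Array titles name biological replicates, although the design text could also mean repeat measurements. In that case each p-value covers the technical spread between arrays and not that between mice.

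Pyruvate dehydrogenase turns pyruvate into acetyl-CoA inside mitochondria and so sets how much carbohydrate enters the citric acid cycle. The kinases phosphorylate its E1 alpha subunit and switch the complex off, and phosphatases reverse this. Pdk4 is a textbook PPAR target that muscle makes in fasting, when it spares glucose and burns fatty acids. Pyruvate carboxylase sends pyruvate to oxaloacetate instead, a step that refills the cycle.

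Each array gave a linear signal intensity for every probe set. The median signal was 513 and 454 on the MCK-PPARb arrays and 466 and 431 on the non-transgenic arrays. Ppard, the gene of PPARbeta, read 126049 and 98797 in MCK-PPARb muscle, against 2169 and 2825 in non-transgenic muscle, so the libraries match their labels. Non-transgenic replicate 1 stood apart at the bright end, with 4.20% of its total signal in 10 probe sets, where the other arrays had 2.36% to 2.78%. All 10 skeletal fibre markers, such as Ckm and Acta1, lay above the filter described next, and all 4 heart muscle markers lay below it by their mean over the 4 arrays. A probe set entered the test when its mean log2 signal was above that of the median probe set, equal to 444 signal units. This left 8 of the 9 measured member genes and 13 of their probe sets, among 11313 probe sets and 6841 genes. Groups were compared with limma, and a gene was called at a Benjamini-Hochberg adjusted p under 0.05 over all kept probe sets. With 2 arrays against 2, an exact permutation test of a single value cannot go below p = 0.333, so each p below borrows its error from other genes through limma.

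None of the 8 tested member genes was called with limma, where 0.731% of all tested genes were, 0.409% higher and 0.322% lower. Pdk4 came nearest, at about 2 times its non-transgenic signal and an adjusted p of 0.0699. At an unadjusted p under 0.05 the count was 3 of 8, Pdk4 and Pdk1 higher and Pcx lower in MCK-PPARb muscle, where 10.9% of all tested genes passed, 5.31% higher and 5.57% lower. The groups did not overlap for 5 of 8 member genes, where 42.9% of all tested genes did not overlap, 22.2% higher and 20.8% lower. These were Pdk4 and Pdk1, higher in MCK-PPARb muscle, and Pdha1, Dld and Pcx, lower there. Pdk2, Pdhb and Dlat overlapped between the groups. A share of 5 in 8 from so few genes is not read as a difference from that background. The median log2 difference over all kept genes was 0.011, and the median size of a difference was 0.24.

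**Figure D1:**
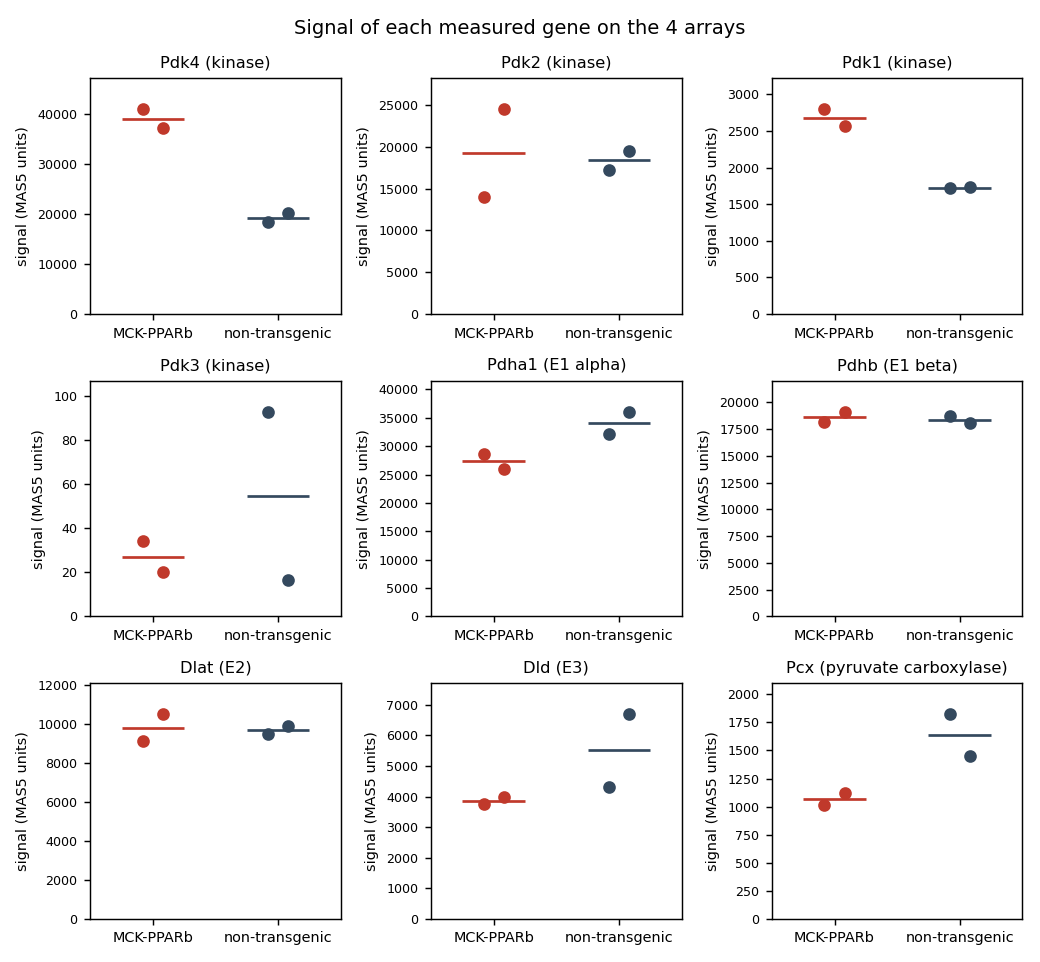
Signal in MAS5 units on a linear axis from 0 for each of the 9 measured genes. Points are arrays, with MCK-PPARb in red on the left and non-transgenic in dark blue on the right, and bars are group means. Pdk4 and Pdk1 lie higher and Pdha1, Dld and Pcx lower on both MCK-PPARb arrays, while Pdk2, Pdk3, Pdhb and Dlat overlap.

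The sequences upstream of the 2 kinase genes that lay higher are shown because the overexpressed protein is a DNA-binding receptor. Each is the 250 bases before the annotated start site, 5′ to 3′ on the gene's strand, from RefSeq on GRCm38.p6. Pdk4 is on the minus strand at chr6:5496279-5496528. Pdk1 is on the plus strand at chr2:71872974-71873223. Capitals mark CCAAT, read as ATTGG on the other strand, in Pdk4 and the GC box GGGCGG in Pdk1.
Pdk4: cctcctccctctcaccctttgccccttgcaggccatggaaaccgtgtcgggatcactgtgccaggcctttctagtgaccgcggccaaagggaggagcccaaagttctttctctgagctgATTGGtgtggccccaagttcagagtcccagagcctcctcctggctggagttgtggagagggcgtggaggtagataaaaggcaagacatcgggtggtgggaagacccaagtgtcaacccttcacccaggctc
Pdk1: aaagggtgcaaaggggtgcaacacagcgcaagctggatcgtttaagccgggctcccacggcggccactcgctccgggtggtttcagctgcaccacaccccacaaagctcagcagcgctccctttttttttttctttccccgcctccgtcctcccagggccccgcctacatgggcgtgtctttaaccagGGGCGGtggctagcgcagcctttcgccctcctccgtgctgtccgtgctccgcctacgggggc
The PPAR direct repeat was searched as AGGNCA, N and AGGNCA in a row on both strands. It was in 0 of the 13 annotated member windows, against 0.338% of 32851 windows of this length. The 13 windows belong to 10 genes, as Pdk1, Pdk2 and Pcx each have a further annotated window. For motifs this rare, as for the FoxO and NRF1 ones below, 13 windows would mostly hold none. Nothing is therefore read from their counts of 0. The shorter receptor core AGGTCA, a possible part of that repeat, was in 0 of 13 member windows, against 14% of all windows. The FoxO motif GTAAACA was likewise in 0 of 13, against 3.17%. TATAAA was in 0 of 13, against 12.4%, and the NRF1 core, an element of many mitochondrial genes, in 0 of 13, against 3.74%. The hypoxia element was searched as ACGTG, in 4 of 13 windows against 16.6%, and as GCGTG, in 6 of 13 against 28.2%. GCGTG lies in both printed sequences, in lower case, with its first base at -78 in Pdk1 and at -71 in Pdk4 relative to the start site. CCAAT was in 6 of 13, against 33.8%, and GGGCGG in 6 of 13, against 32.7%. These letters describe the 250 bases alone, and elements farther from the start site were not searched.

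Among the kinases, Pdk4 had the largest difference. Its signal was 40918 and 37141 in MCK-PPARb muscle, against 18338 and 20094 in non-transgenic muscle. The groups did not overlap, and the gap between the groups was wider than the spread within either. The log2 difference was 1.02 ± 0.18 (SE, n = 2 per group), a 2.03-fold higher signal with a 95% interval of 0.60 to 1.44 on the log2 scale. Its unadjusted limma p was 0.000587, and 0.831% of the kept probe sets had a smaller one. The adjusted p of 0.0699 misses the threshold. In limma fits with 1 array left out, it was 0.412 without MCK-PPARb replicate 1 and 0.319 without MCK-PPARb replicate 2. It was 0.0431 and 0.0267 when non-transgenic replicate 1 or 2 was dropped, which is under the threshold. In each of these fits 1 group has a single array, which is assumed to vary like the other group. The adjusted p then rests on the spread of the pair that is left, over all genes through limma, and is not a firmer result. The log2 difference of Pdk4 itself ran from 0.95 to 1.09 over those fits. Pdk4 has 1 probe set on the array, so no other probe set of the gene was available to set beside it.

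Pdk1, a kinase isoform known as a target of hypoxia-inducible factor, has 2 probe sets and both ran the same way. The probe set of highest mean read 2799 and 2563 in MCK-PPARb muscle, against 1716 and 1735 in non-transgenic muscle. The groups did not overlap, and the log2 difference of 0.63 ± 0.21 (SE, n = 2 per group) corresponds to a 1.55-fold higher signal (limma, unadjusted p = 0.0193, adjusted p = 0.335). The other read 2486 and 2994 in MCK-PPARb muscle, against 1079 and 1817 in non-transgenic muscle. It too did not overlap, with a log2 difference of 0.96 ± 0.30 (limma, unadjusted p = 0.0137, adjusted p = 0.293). Neither probe set passed. The 95% intervals of 0.14 to 1.13 and 0.26 to 1.66 on the log2 scale overlap each other.

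Pdk2, the kinase isoform found in most tissues, read 13980 and 24522 in MCK-PPARb muscle, against 17280 and 19476 in non-transgenic muscle. The MCK-PPARb arrays lay on either side of the non-transgenic pair, and the log2 difference was 0.013 ± 0.27 (limma, adjusted p = 0.990). Its 95% interval of -0.63 to 0.66 leaves room for a difference of the size seen for Pdk1. The value depended on the MCK-PPARb arrays, at 0.42 without replicate 1 and -0.39 without replicate 2.

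Pdk3, an isoform best known from testis, read 34.2 and 20 in MCK-PPARb muscle, against 92.8 and 16.4 in non-transgenic muscle. These signals are far below the filter level of 444 units, and 7.26% of the tested and untested non-control probe sets had a lower mean. The groups overlapped, and Pdk3 did not enter the main test. In the limma fit without the filter its log2 difference was -0.58 ± 1.32 (adjusted p = 0.966).

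**Figure D2:**
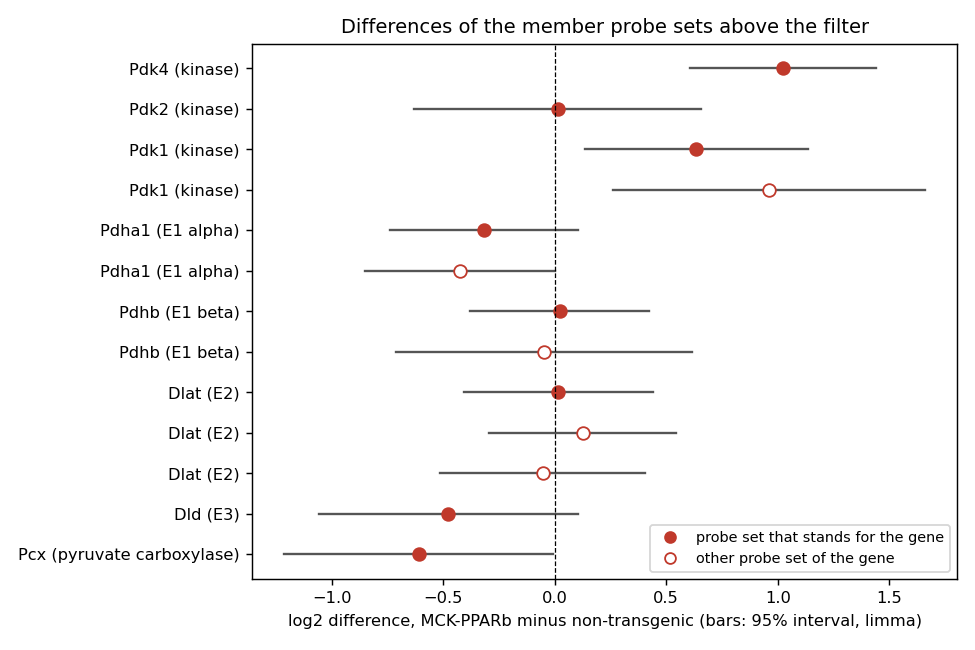
Log2 differences, MCK-PPARb minus non-transgenic, of the 13 member probe sets above the filter, with 95% intervals from limma. Filled points stand for the gene and open points are its other probe sets; the intervals of Pdk4, of both Pdk1 probe sets and of Pcx exclude 0 before adjustment.

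No subunit gene of the complex passed the test, and their differences ran in both directions. Pdha1, the E1 alpha subunit that carries the phosphorylation sites, was lower in signal on both MCK-PPARb arrays. It read 28649 and 26051 in MCK-PPARb muscle, against 32135 and 36088 in non-transgenic muscle. The log2 difference was -0.32 ± 0.18 (SE, n = 2 per group; limma, adjusted p = 0.596), with a 95% interval of -0.74 to 0.11. A further Pdha1 probe set read 10113 and 10352 in MCK-PPARb muscle, against 12634 and 14898 in non-transgenic muscle, also without overlap. Its log2 difference was -0.42 ± 0.18 (limma, adjusted p = 0.475). Both probe sets thus ran the same way, and neither passed.

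Pdhb, the E1 beta subunit that pairs with Pdha1, read 18216 and 19148 in MCK-PPARb muscle, against 18720 and 18070 in non-transgenic muscle. The groups overlapped, with a log2 difference of 0.022 ± 0.17 (limma, adjusted p = 0.978) and a 95% interval of -0.38 to 0.42. Its other probe set, at 1093 and 1601 in MCK-PPARb muscle and 1269 and 1474 in non-transgenic muscle, overlapped as well (log2 -0.048 ± 0.28).

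Dlat encodes E2, the acetyltransferase core that carries lipoate, and has 3 probe sets. The brightest, which carries a suffix for probes that can also bind other transcripts, read 9120 and 10504 in MCK-PPARb muscle, against 9478 and 9879 in non-transgenic muscle. The log2 difference was 0.016 ± 0.18 (limma, adjusted p = 0.984), with a 95% interval of -0.41 to 0.44. The other probe sets of Dlat had log2 differences of 0.12 ± 0.18 and -0.054 ± 0.20. Only the first of these did not overlap, at 8343 and 7745 in MCK-PPARb muscle against 7149 and 7604 in non-transgenic muscle.

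Dld encodes E3, the dihydrolipoamide dehydrogenase that several mitochondrial complexes share. It read 3760 and 3980 in MCK-PPARb muscle, against 4325 and 6700 in non-transgenic muscle. The groups did not overlap, but most of the difference came from non-transgenic replicate 2. The log2 difference was -0.48 ± 0.25 (limma, adjusted p = 0.562). It was -0.16 without non-transgenic replicate 2 and -0.79 without non-transgenic replicate 1.

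Pcx, pyruvate carboxylase, read 1010 and 1124 in MCK-PPARb muscle, against 1824 and 1448 in non-transgenic muscle. The groups did not overlap, and the log2 difference was -0.61 ± 0.26, a 1.53-fold lower signal (limma, unadjusted p = 0.0483, adjusted p = 0.468). The array also holds 4 control probe sets along the Pcx transcript. The one at the 3′ end read 517 and 708 in MCK-PPARb muscle, against 1243 and 889 in non-transgenic muscle, again without overlap (log2 -0.80, not tested). The other controls, at the 5′ end and in the middle, overlapped between the groups, with log2 differences of -0.43, -1.22 and -0.50. Several of their signals were below 444 units.

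**Figure D3:**
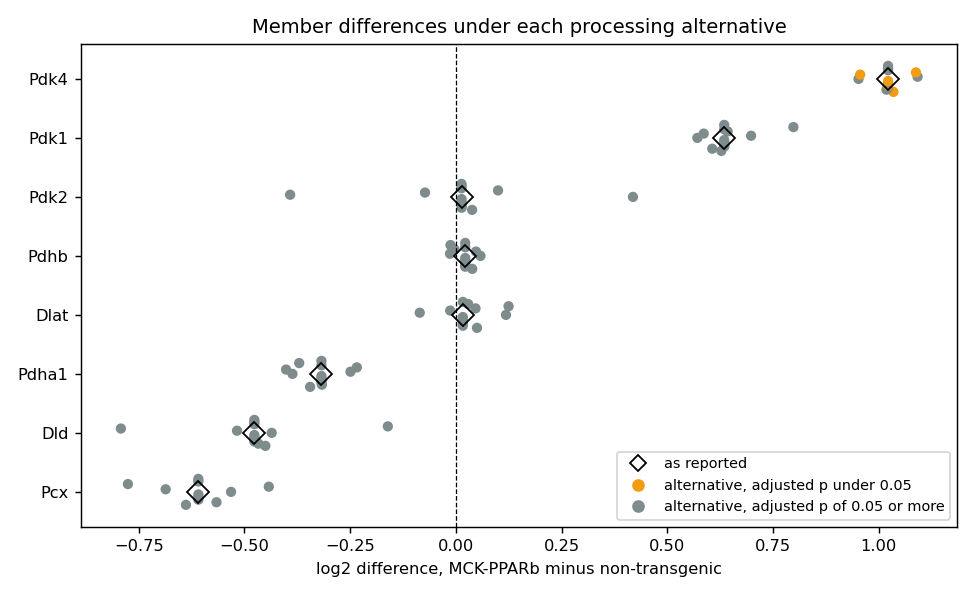
Log2 differences, MCK-PPARb minus non-transgenic, of the 8 tested members as reported (open diamonds) and under each processing alternative (circles, orange at an adjusted p under 0.05). Pdk4 stays between 0.95 and 1.09 and is the gene with orange circles, while Pdk2, Pdhb and Dlat fall on both sides of 0.

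Ratios between members within an array do not change when an array is scaled by 1 factor. They were added after the values were seen and carry no p. The log2 ratio of Pdk4 to Pdha1 signal was 0.51 and 0.51 on the MCK-PPARb arrays, against -0.81 and -0.84 on the non-transgenic arrays. The change of 1.34 is a 2.53-fold shift of the kinase relative to its substrate transcript, and the arrays of a group lay close together. With the other Pdha1 probe set the change was 1.45. The ratio of Pdk1 to Pdha1 changed by 0.95, at -3.36 and -3.35 on the MCK-PPARb arrays against -4.23 and -4.38 on the non-transgenic arrays. The ratio of Pdk4 to Pdk1 changed less, by 0.39, with 3.87 and 3.86 in MCK-PPARb muscle against 3.42 and 3.53 in non-transgenic muscle. That of Pdk4 to Pdk2 changed by 1.01 and was spread widely on the MCK-PPARb arrays, at 1.55 and 0.60, against 0.086 and 0.045 on the non-transgenic arrays. Within E1, the ratio of Pdha1 to Pdhb changed by -0.34, with 0.65 and 0.44 in MCK-PPARb muscle against 0.780 and 0.998 in non-transgenic muscle. The 9 ratios computed were picked with the values known and mostly have Pdk4 on top, so nothing is read from how many of them separate the groups. The absolute ratios carry the brightness of the probes, and only their change between groups compares transcripts.

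**Figure D4:**
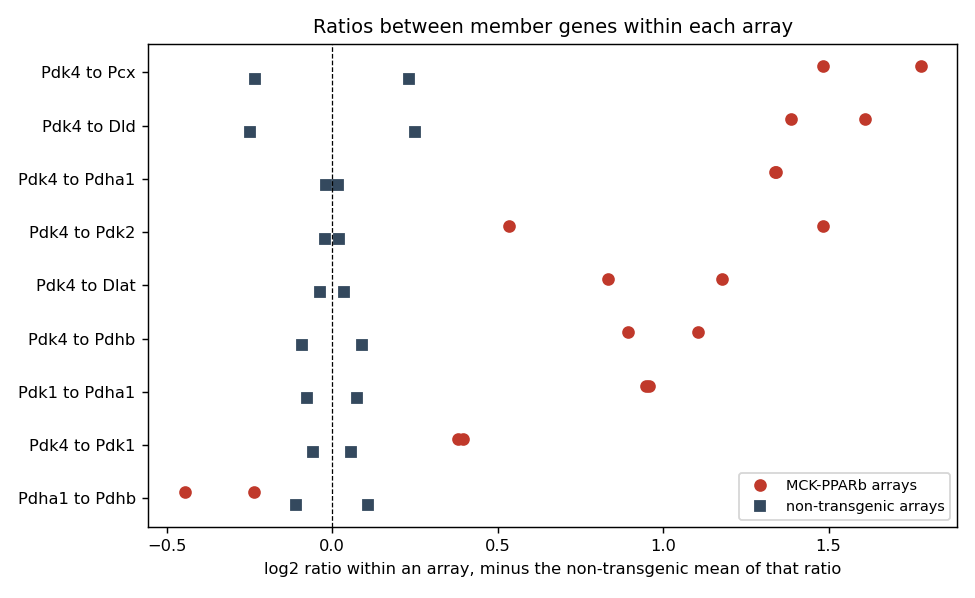
Log2 ratio of the signals of 2 member genes within each array, less the non-transgenic mean of that ratio. Red circles are MCK-PPARb arrays and dark squares non-transgenic arrays; the Pdk4 to Pdha1 ratio sits at 1.34 on average on the MCK-PPARb arrays with little spread.

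Genes around the complex were taken from lists chosen with earlier results of these data known, and differences are MCK-PPARb minus non-transgenic on the log2 scale. No probe set was matched to the phosphatase genes Pdp1 and Pdp2 or to Pdpr, which are not analysed here. For pyruvate entry, lactate and alanine, 8 of 11 genes were tested, of which 1 rose, 0 fell and 7 did not pass, with a median of -0.22. Gpt, the cytosolic alanine aminotransferase that links pyruvate and alanine, read 3535 and 3476 in MCK-PPARb muscle, against 1357 and 1036 in non-transgenic muscle. It rose 2.96-fold (1.56 ± 0.24, limma, adjusted p = 0.0429). Its probe set, like that of Gpt2, carries the suffix _s_at, for probes that can also bind other transcripts. Gpt2, the mitochondrial counterpart of Gpt, read 4572 and 4169 in MCK-PPARb muscle, against 10381 and 8367 in non-transgenic muscle, and did not pass (-1.09 ± 0.20, limma, adjusted p = 0.0825). The lactate exporter gene Slc16a3 (-0.99) and the heart-type lactate dehydrogenase gene Ldhb (0.78) did not pass either. Mpc1, part of the carrier that brings pyruvate into mitochondria, was at -0.0083 ± 0.18.

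The next list had 11 genes, of other 2-oxo acid dehydrogenase complexes and their regulators, and of the glycine cleavage system. The complexes are built like pyruvate dehydrogenase, and several of these systems share Dld. Of the 11 genes, 7 were tested and none passed (1 at an unadjusted limma p under 0.05), with a median of 0.062. Bckdha, the E1 alpha subunit of the branched-chain complex, read 6321 and 7722 in MCK-PPARb muscle, against 3656 and 3465 in non-transgenic muscle (0.97 ± 0.20, limma, adjusted p = 0.106). Gcsh of the glycine cleavage system (0.26), Dlst, the E2 of the 2-oxoglutarate complex (-0.19), and Bckdk, the branched-chain kinase (0.17), did not pass. Ogdh, the E1 of the 2-oxoglutarate complex, was at 0.038 ± 0.18. The 4 tested genes of lipoate and thiamine supply had a median of 0.15, and none passed (0 at an unadjusted limma p under 0.05). They were Mcat (0.48), Lipt2 (0.20), Lias (0.10) and Lipt1 (-0.15), all of which serve mitochondrial lipoate synthesis or transfer.

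For acetyl-CoA and oxaloacetate use, 6 of 9 genes were tested, of which 1 rose, 0 fell and 5 did not pass, with a median of 0.26. Acss1, which makes mitochondrial acetyl-CoA from acetate, read 3578 and 2940 in MCK-PPARb muscle, against 731 and 800 in non-transgenic muscle (2.08 ± 0.24, limma, adjusted p = 0.0166). Acly, which makes cytosolic acetyl-CoA from citrate (0.81), Crat, which exchanges acetyl groups with carnitine (0.40), and Cs, citrate synthase (-0.24), did not pass.

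Among regulators of the kinase genes, 14 of 18 were tested, of which 1 rose, 0 fell and 13 did not pass, with a median of 0.073. Ppard was the one that rose, as the transgene. Srebf1, a regulator of lipid synthesis, was at -1.13 ± 0.21 (limma, adjusted p = 0.0939). Hif1a, whose protein acts on Pdk1 in low oxygen, read 2178 and 2946 in MCK-PPARb muscle, against 1495 and 1521 in non-transgenic muscle (0.75 ± 0.24, limma, adjusted p = 0.319). Ppara was at 0.98 ± 0.38 (limma, adjusted p = 0.411). Of 16 PPAR targets other than Pdk4, 9 were tested and none passed (5 at an unadjusted limma p under 0.05, all higher, where 5.31% of all tested genes were), with a median of 0.70, of 0.46 without MCK-PPARb replicate 1 and of 0.35 without probe sets of the suffixes _s_at, _x_at and _a_at. Fabp3 for fatty acid binding (0.98), Cat for catalase (1.08), and Hadha (0.76) and Acadl (0.90) of beta-oxidation had the smallest p. Cd36, a fatty acid transporter, was the other one (0.70), while Plin2 (0.30), Acadm (0.15), Slc25a20 (-0.043) and Ucp3 (-0.43) overlapped between the groups. Further targets lay below the filter and were not tested. Angptl4 read 953 and 941 in MCK-PPARb muscle, against 303 and 67 in non-transgenic muscle (2.73). Ehhadh was at 0.65, and Acot1 (0.73) and Acot2 (0.064) overlapped.

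**Figure D5:**
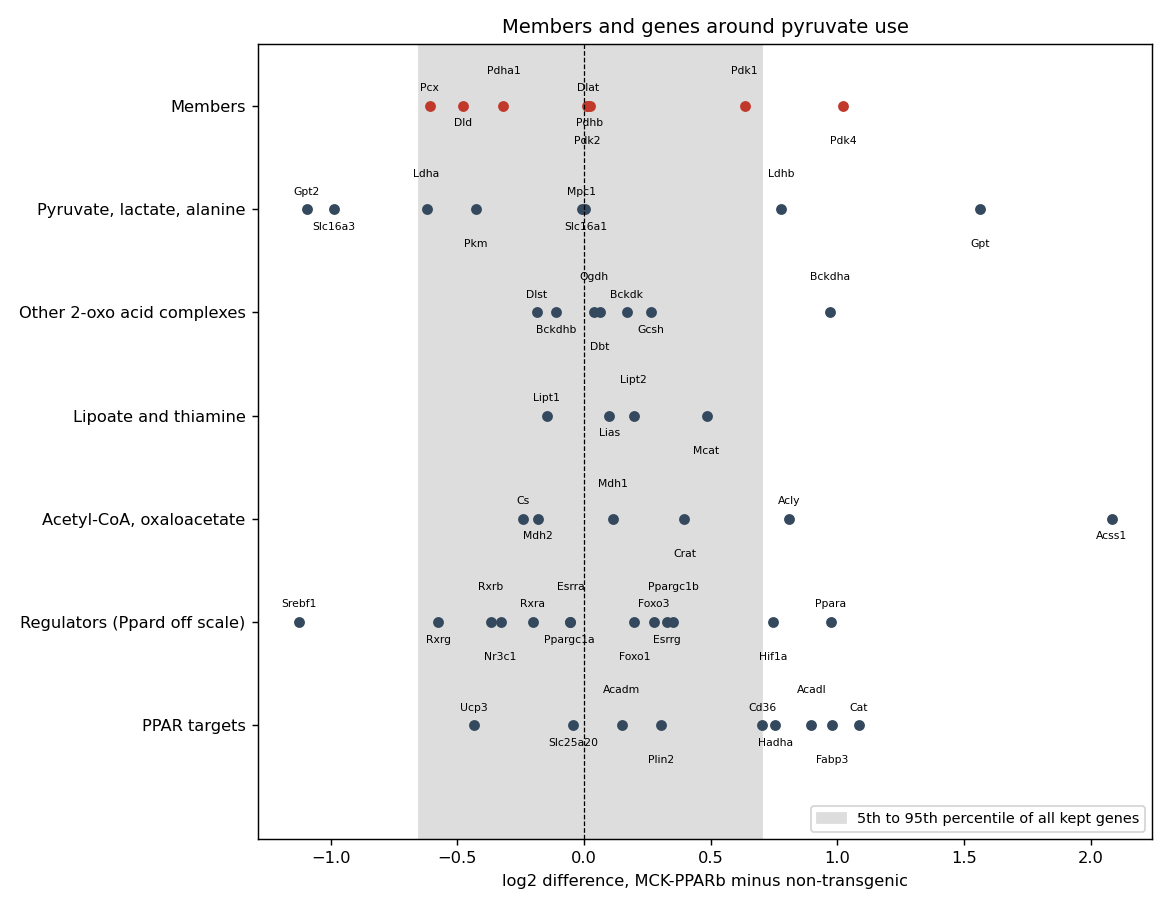
Log2 differences, MCK-PPARb minus non-transgenic, of the tested members (red) and of tested genes in 6 lists around pyruvate use (dark blue). The grey band runs from -0.65 to 0.70, the 5th to the 95th percentile of all kept genes; Pdk4 lies outside the band and the other 7 members inside it, and Ppard, at 5.49, is not drawn.

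Markers of some fibre and cell types also moved between the groups, and those of others moved little. The signals of 7 slow fibre markers summed to 144234 and 170202 in MCK-PPARb muscle, against 60904 and 98396 in non-transgenic muscle. Of these, 6 did not overlap and were higher in MCK-PPARb muscle, where 22.2% of all tested genes were, Tpm3 overlapped (-0.16), and none was called (limma, 5 at an unadjusted p under 0.05). The median of all 7 was 1.10, and it was 0.76 without non-transgenic replicate 1 and 0.67 without probe sets of the suffixes _s_at, _x_at and _a_at. The 9 fast fibre markers all overlapped, and summed to 1278500 and 1123350 in MCK-PPARb muscle, against 1998620 and 1085450 in non-transgenic muscle. Their median of -0.32 did not keep its sign. With non-transgenic replicate 1 left out it was 0.16, with quantile normalization 0.020, and when the second non-transgenic array was dropped -0.79. The 10 skeletal fibre markers, in part the same genes, had a median of -0.33, and of 0.12 without non-transgenic replicate 1. Among them Mb, for myoglobin, was lower without overlap (-0.53), Myh7 was higher without overlap (0.67) and the rest overlapped. None of the 10 was called with limma. For adipocytes, which also make Pdk4 and Pcx, 5 of 7 markers were measured. They summed to 12482 and 12392 in MCK-PPARb muscle, against 9561 and 14305 in non-transgenic muscle, and overlapped in sum. Adipoq (1.03) and Retn (1.02) were higher in MCK-PPARb muscle and Fabp4 (-0.23) overlapped. Below the filter, Lep was lower in MCK-PPARb muscle without overlap (-0.80) and Cidec overlapped (-0.47). The brown fat markers Ucp1 and Cidea summed to 984 and 1184 in MCK-PPARb muscle, against 243 and 145 in non-transgenic muscle, and each of them lay below the filter. Of 7 Schwann cell markers, 4 were measured, and they summed to 30001 and 33770 in MCK-PPARb muscle, against 17788 and 19655 in non-transgenic muscle. Mbp (0.96), Pmp22 (0.67) and Sox10 (0.29) were higher without overlap, and S100b, below the filter, overlapped (-0.94). Tested markers had a median of 0.12 for endothelium (4 genes), 0.12 for macrophages and leukocytes (3 genes) and -0.16 for fibroblasts (3 genes). For macrophages and leukocytes that median hides a spread. Adgre1 was higher without overlap (0.83), while Cd68 (0.12), Csf1r (-0.016) and, below the filter, Ptprc (-0.42) overlapped. None of these tested markers was called with limma. The 4 heart muscle markers summed to 1239 and 3297 in MCK-PPARb muscle, against 730 and 850 in non-transgenic muscle, and were not tested. Myh6, the alpha myosin heavy chain of heart, read 468 and 1103 in MCK-PPARb muscle, against 124 and 251 in non-transgenic muscle (log2 difference 2.03). Tnni3 read 287 and 1350 in MCK-PPARb muscle, against 242 and 175 in non-transgenic muscle, and Tnnt2 read 310 and 747 in MCK-PPARb muscle, against 198 and 267 in non-transgenic muscle. These 3 did not overlap and were above 444 units on MCK-PPARb replicate 2, while Nppa overlapped. Of all tested genes 22.2% were higher without overlap, and no such share was computed for genes below the filter. No marker was at 0. The part of these fibre and cell types in the signals of Pdk4, Pdk1 and Pcx was not tested.

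The genes whose 4 centred log2 signals lay nearest to those of Pdk4 were Cttn (Euclidean distance 0.059), Llgl2 (0.093), Cyb5r3 (0.10), Hspa1l (0.11) and Gusb (0.13). Cttn, which encodes cortactin, read 1919 and 1831 in MCK-PPARb muscle, against 860 and 951 in non-transgenic muscle. With only 4 arrays, many genes of a like fold come close.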

How the data were processed

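Per the labels' protocols, RNAzol B was used to prepare total RNA, from which biotinylated cRNA was made by Affymetrix's method. The deposited values are linear signal intensities, 1 per probe set and array. The submitters' processing notes list MAS5 and GCOS without a version. All 4 arrays share a mean of 1500 once the outer 2% of probe sets at either end are trimmed, which shows a common scaling. No detection call was used.

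Of 22690 probe sets, 64 controls were left out. Symbols came from the platform annotation and were updated through the gene number with the RefSeq table of GRCm38.p6, for 20351 of 20380 probe sets with 1 symbol. Signals were used as deposited on the log2 scale without a pseudocount and fitted with limma 3.58.1 in R 4.3.3 (lmFit, eBayes with an intensity trend, two-sided, Benjamini-Hochberg adjustment over 11313 kept probe sets). The prior gave 5.38 degrees of freedom to 2 residual ones. The fit was also run on simulated data with normal noise whose spread did not depend on signal level. The real arrays may differ from that, and no result here rests on it. The number of arrays limits the precision.

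Members and lists were chosen with earlier results of these data known. All members are named, with up to 4 genes of smallest p per list and the 5 genes nearest to Pdk4. Mpc1, Ogdh, Cd36, Plin2, Acadm, Slc25a20, Ucp3, Tpm3, Adipoq, Retn, Fabp4, Ucp1, Cidea and the heart muscle markers were named in addition, after their values were seen. So were Angptl4, Ehhadh, Acot1, Acot2, Lep, Cidec, Mbp, Pmp22, Sox10, S100b, Adgre1, Cd68, Csf1r, Ptprc, Mb and Myh7. Alternatives covered normalization, a pseudocount of 100, the filter, the variance model, a replicate block, left-out arrays, probe set choice and the threshold.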

Additional observations from a re-analysis of the deposited data

How the results depend on the processing

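Pdk4 kept its direction under all 13 alternatives, with log2 differences of 0.95 to 1.09, and was called in 6 of them. It was the 1 member called there, and the cause was not tested. The value and adjusted p from limma were 1.03 and 0.0305 with quantile normalization and 1.02 and 0.0428 with a filter at the 75th percentile, where fewer probe sets are tested. They were 1.02 and 0.0114 with a replicate block, and Pdk4 also passes at an adjusted p under 0.1. The other passes came with non-transgenic replicate 1 or 2 left out, where the lone array of that group is assumed to vary like the MCK-PPARb arrays. With an array left out the difference ran from 0.95 to 1.09, and 0 to 1 members were called. Pdk1, Pdha1, Dld and Pcx kept their direction and stayed uncalled wherever they were fitted. Pcx was not fitted with the 75th percentile filter or without the suffixes _s_at, _x_at and _a_at. Differences near 0 turned sign. With an array left out, Pdk2 ran from -0.39 to 0.42, Pdhb from -0.014 to 0.058 and Dlat from -0.086 to 0.12, and Pdhb was at -0.013 with the mean of its probe sets. Over the whole array 68 probe sets were called, against 21 without the intensity trend, 377 with the replicate block, 150 at an adjusted p under 0.1 and 36 to 159 with an array left out. The labels give same-numbered arrays no link beyond the number, and whether they share a batch is not stated. Deviations of same-numbered arrays correlated at 0.28 over 11313 probe sets, and the block leaves 1 residual degree of freedom. The block changed no other member's call. Over the alternatives, the list median ran from -0.71 to -0.0083 for pyruvate, lactate and alanine. It ran from -0.035 to 0.21 for other 2-oxo acid complexes with the glycine cleavage system. For lipoate and thiamine it ran from 0.087 to 0.22 and for acetyl-CoA use from 0.19 to 0.40. For regulators it ran from -0.14 to 0.19 and for PPAR targets from 0.35 to 0.72.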
